A study of Mus musculus with 2 samples.

Results

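Cells chosen by their UMI counts of Csf1r, Ms4a6c and Fcgr1 (unique molecular identifiers, each standing for 1 captured transcript molecule) were taken from the spleens of mice in a model of ovalbumin (OVA) allergy, and 254 such cells were found among the 16325 cells that passed the cell filter, out of 16829 cell barcodes in all. They made up 1.56% of the filtered cells (exact 95% interval 1.37 to 1.76%). A cell was kept with at least 200 genes and at most 10% of its UMIs from mitochondrial genes. It entered the gate with at least 2 UMIs of Csf1r, Ms4a6c and Fcgr1 together, and it left the gate with 2 or more UMIs of Cd209a and Clec10a, 2 or more of Xcr1 and Clec9a, 3 or more of Ccl24, St18 and Slc4a4, 10 or more of Mpo, Elane and Ctsg, or any UMI of the lymphoid genes Cd79a, Ms4a1, Cd3d, Cd3e or Ncr1. The gated cells were then divided into 97 cells with at least 1 Ly6c2 UMI, 51 cells with Ace or Nr4a1 and no Ly6c2, and 106 cells with none of these 3 transcripts.

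The mice were wild-type (WT) C57BL/6 animals, 8 weeks old, all sensitized to OVA on days 0 and 10. One group stayed untreated, a Standard therapy group received OVA in PBS on days 20, 22 and 24 and OVA in Alum on days 40 and 60, and the other group received DCIR2-Fp, an antibody fusion protein that carries OVA to the DCIR2 receptor of type 2 conventional dendritic cells, on days 20, 22 and 24. On day 80 the mice were challenged with OVA, and spleen cells of every group were restimulated for 3 h with phorbol ester and ionomycin (PMA/ionomycin), sorted, frozen and loaded as 1 pool. Leukocytes with surface CD11b and those without it had been collected apart and mixed in equal numbers. The share of gated cells was therefore partly set by the sort, and every cell, in all 3 conditions, had been restimulated.

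The conditions were marked by hashtags, which are antibodies that carry a short DNA tag and bind to the cells of a single sample before pooling. The tags of the 4 hashtags in the pool are shown because they are the only label that links a cell to its sample of origin, and all 15 bases of each, in capitals, form the tag.
hashtag 9: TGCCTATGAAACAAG
hashtag 10: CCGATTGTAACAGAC
hashtag 11: GCTTACCGAATTAAC
hashtag 12: CTGCAAATATAACGG
The labels do not say which hashtag marked which of the 3 conditions, so therapies were not compared here. The pool is 1 sample with no replicate. No p-value is given. Levels are in CPM (a gene's UMIs per 1000000 UMIs, both summed over a set of cells) with exact Poisson 95% intervals, shares of cells carry exact Clopper-Pearson 95% intervals, and ratios of CPM carry exact conditional 95% intervals. All of these intervals cover counting error only. CPM values of different genes are summed over lists and used to name the most abundant gene of a list, and are not otherwise compared with each other.

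Monocytes are bone marrow-derived phagocytes that circulate in blood and are held in reserve in the spleen. In the mouse, classical monocytes carry Ly6C on their surface, leave the vessels through the chemokine receptor CCR2 and can turn into macrophages or antigen-presenting cells, whereas nonclassical monocytes lose Ly6C, depend on the nuclear receptor NR4A1 and patrol the vessel wall. Csf1r encodes the receptor for the growth factor M-CSF, Fcgr1 the high-affinity receptor for IgG, Ms4a6c a tetraspan membrane protein, and Lyz2 the lysozyme of myeloid cells. Nr4a1 is also an early response gene that lymphocytes switch on after antigen receptor signals or PMA/ionomycin.

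A gated cell held a median of 8964.5 UMIs (range 1086 to 30179) and 2488.5 genes. The median was 10788 UMIs in the Ly6c2 cells, 9203 in the Ace or Nr4a1 cells and 7558 in the cells with none of the 3 genes. The cells used for comparison, under the same filter, had median depths of 9502 UMIs (2393 B cells, gated on Cd79a and Ms4a1), 9270.5 UMIs (1406 T cells, gated on Cd3d and Cd3e) and 5440.5 UMIs (4212 NK cells, gated on Ncr1).

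The label monocyte was first checked with Lyz2, a marker that the gate did not use. Lyz2 was found in 142 of the 254 gated cells, or 55.9% (49.6 to 62.1%), at 2022 CPM (1967 to 2079). It was found in 2.3% of B cells, 3.91% of T cells and 3.13% of NK cells of this pool, which should lack the gene. The lysozyme transcript was thus missing in many gated cells, and the shares differed along the split. Among Ly6c2 cells 87.6% had Lyz2 (79.4 to 93.4%), with a median of 31 UMIs per cell and a range of 0 to 141. Among Ace or Nr4a1 cells 23.5% had it (12.8 to 37.5%), with a median of 0 and a highest cell of 50 UMIs. When every cell was thinned to 1000 UMIs, the shares with Lyz2 were 80.4% in Ly6c2 cells and 9.80% in Ace or Nr4a1 cells, so the order was kept at equal depth.

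How a cell entered the gate went with its Lyz2 content. Ms4a6c UMIs alone brought in 125 cells (49.2% of the gate), and 23.2% of these had Lyz2. The 37 cells with all 3 gate genes had Lyz2 in 94.6% of cases. Ms4a6c itself was not confined to myeloid cells, being found in 21.4% of B cells, 12.2% of T cells and 9.57% of NK cells. Csf1r and Fcgr1 were rarer there, at 1.55% and 0.46% of B cells, 2.42% and 0.711% of T cells, and 0.95% and 0.617% of NK cells. At the threshold, 346 cells just outside the gate (a sum of exactly 1 UMI) had Lyz2 in 15.6%, and 101 cells just inside (exactly 2 UMIs) had it in 27.7%, and in 79.8% and 72.3% of them, respectively, every UMI was Ms4a6c.

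Positions are given in GRCm38 with the GENCODE M21 annotation. Ms4a6c spans 11469366 to 11482192 on the plus strand of chromosome 19. Fcgr1 spans 96282909 to 96293969 on the minus strand of chromosome 3. Lyz2 spans 117277331 to 117282321 on the minus strand of chromosome 10. Ly6c2 spans 75108158 to 75111970 on the minus strand of chromosome 15, next to its near-identical paralog Ly6c1 (75044018 to 75048830, also minus strand). Reads shared by these paralogs cannot be assigned with certainty. Ly6c1 had 5 UMIs in the gated cells and Ly6c2 had 822.

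**Figure D1:**
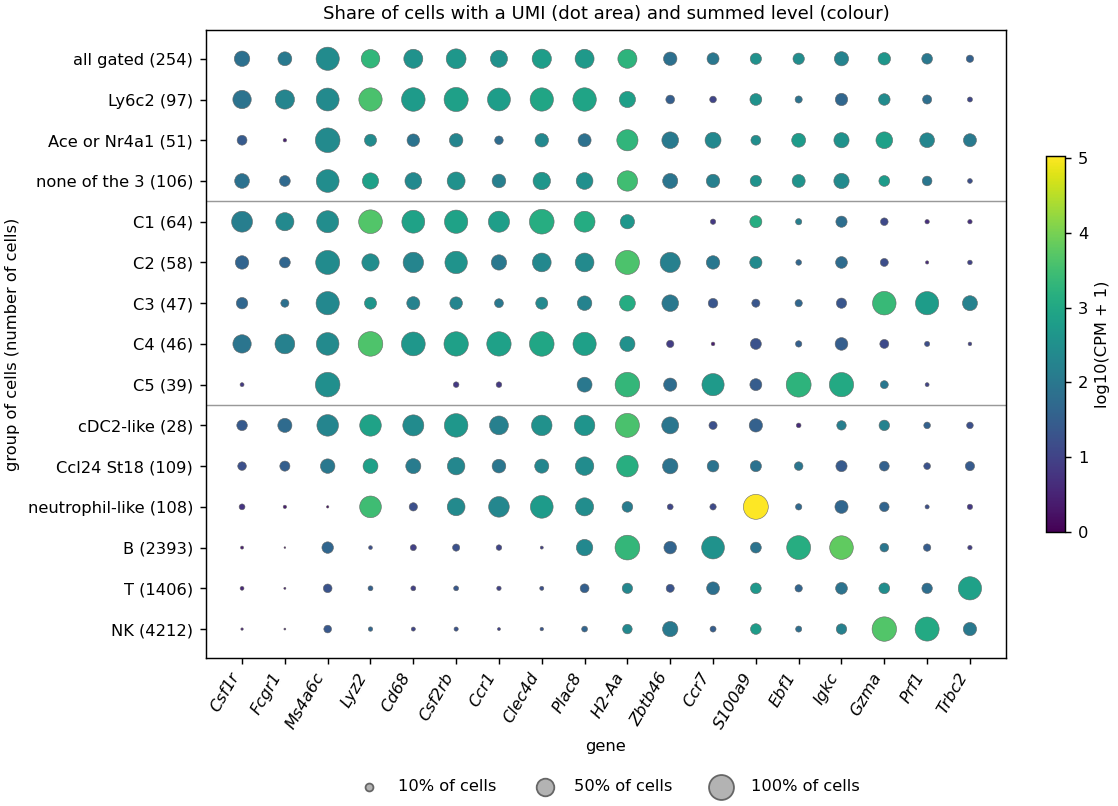
Share of cells with at least 1 UMI (dot size) and level in CPM (dot colour, log scale) of marker genes in the gated cells, their subsets and clusters, and the comparison cells of the same pool. Lyz2 was found in 87.6% of Ly6c2 cells and 23.5% of Ace or Nr4a1 cells, and in 2.3% of B cells.

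Graph-based clustering of the 254 cells gave 5 clusters, numbered by size (C1 to C5 in the plots), and their leading genes are given only to describe them. Cluster 1 (64 cells) and cluster 4 (46 cells) were rich in Lyz2, found in 91% and 98% of their cells. Together they held 110 cells (43.3% of the gate), among them 74 of the 97 Ly6c2 cells (76.3%). Cluster 1 was led by S100a9, S100a8, Jag1, Dppa3, Apoc2 and Slpi, and the richest cell for each gene held 377 of the 660 S100a9 UMIs, 250 of the 454 S100a8 UMIs and 421 of the 898 Slpi UMIs. Cluster 4 was led by Nrg1, Chn2, Slc7a2, Hist1h1b, Ccl2 and Mki67, the last of which marks dividing cells. There the richest cell for each gene held 76 of the 156 Chn2 UMIs, 85 of the 165 Hist1h1b UMIs and 208 of the 575 Ccl2 UMIs. Cluster 2 (58 cells) was led by Tbc1d4, Zfp366, Ccl22, Il4i1, Ly75 and Cxcl9, genes in part known from dendritic cells. In that cluster H2-Aa, an MHC class II chain, had a median of 44 UMIs per cell, against a median of 0 in clusters 1 and 4.

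The other 2 clusters were led by lymphocyte genes. Cluster 3 (47 cells) was led by Klra7, Itga2, Gzma, Klra9, Skap1 and Xcl1, together with Gzmb and Prf1, the cytotoxic granule genes of NK cells. Cluster 5 (39 cells) was led by Pou2af1, Bank1, Arhgap24, Ebf1 and Fcrl5, together with the immunoglobulin genes Iglc2, Igkc and Ighm. All 39 cells of cluster 5 had the B cell transcription factor Ebf1 and none had Lyz2, which allows a share of cells with a Lyz2 UMI of up to 7.69% by a limit of 3 cells of 39 and up to 9.03% by the exact interval. These 86 cells were 33.9% of the gate (28.1 to 40.0%). They included 11 of the 97 Ly6c2 cells (11.3%), 32 of the 51 Ace or Nr4a1 cells (62.7%) and 43 of the 106 cells with none of the 3 genes (40.6%). They also included 73 of the 125 cells that entered on Ms4a6c alone (58.4%) and 13 of the 129 cells with Csf1r or Fcgr1 (10.1%). The gate required Cd79a, Ms4a1, Cd3d, Cd3e and Ncr1 to be at 0, so these genes cannot mark lymphocytes within it.

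Marker lists of lymphocytes were read next. Over 17 lymphoid marker genes that the gate did not set to 0, 84 gated cells had 10 UMIs or more (33.1%), among them 15.5% of Ly6c2 cells and 62.7% of Ace or Nr4a1 cells. The B cell list, whose most abundant gene was Ebf1, summed to 148.0 CPM in Ly6c2 cells and 1043 CPM in Ace or Nr4a1 cells, against 10206 CPM in B cells. The NK cell list, led by Gzma, summed to 356.9 CPM in Ly6c2 cells and 1036 CPM in Ace or Nr4a1 cells, against 6564 CPM in NK cells. The T cell list, led by Trbc1, summed to 53.8 and 318.8 CPM, against 2561 CPM in T cells. Doublets, meaning droplets with more than 1 cell, were marked but kept. Scrublet marked 18 gated cells (7.09%), 10 of them among the 47 cells of cluster 3, and 43 gated cells carried 2 or more hashtags. The part of lymphocytes and doublets in the results below was not tested. For some of the genes below, values without clusters 3 and 5 stand beside those of all cells.

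**Figure D2:**
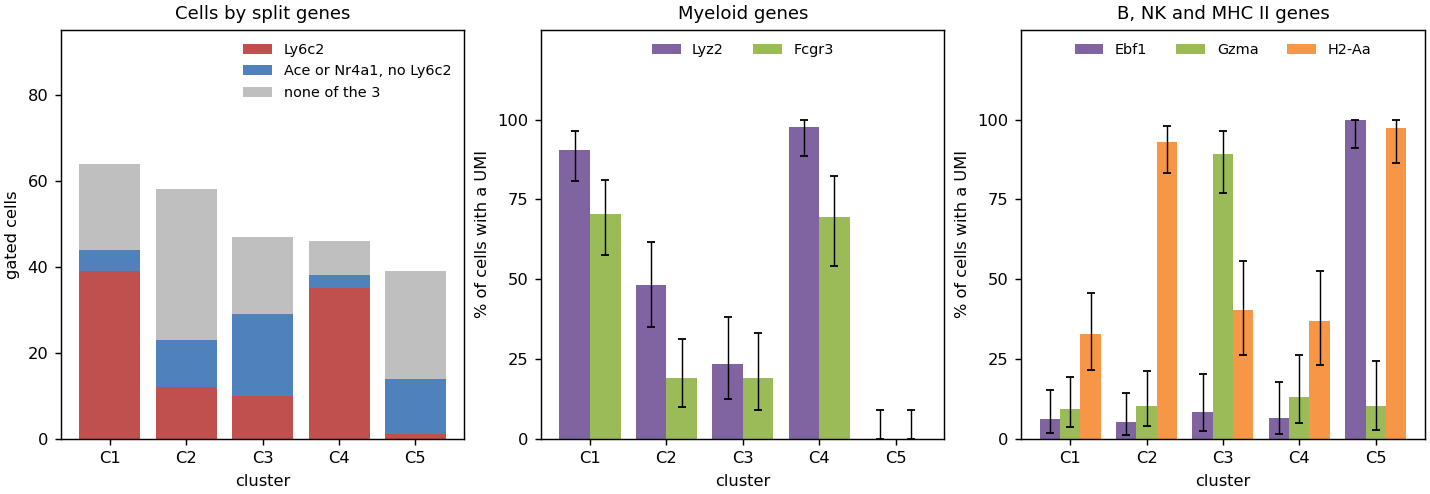
Left, number of gated cells in each of the 5 clusters, stacked by Ly6c2 cells, Ace or Nr4a1 cells and cells with none of the 3 genes. Middle and right, share of the cells of each cluster with at least 1 UMI of the myeloid genes Lyz2 and Fcgr3 (middle) and of Ebf1, Gzma and H2-Aa (right), with exact 95% intervals. Lyz2 was found in no cell of cluster 5 and Ebf1 in all 39.

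Marker lists of other myeloid cells were unequal. The red pulp macrophage list summed to 61.5 CPM over the gated cells, with Timd4 as its most abundant gene and Cd5l and Siglec1 at 0. The basophil and mast cell list summed to 1.60 CPM, with 5 of its 7 genes at 0, and the eosinophil list to 6.39 CPM. The neutrophil list summed to 687.5 CPM, led by S100a9, against 173.6 CPM in B cells, 1150 CPM in T cells and 1251 CPM in NK cells, which should all lack these genes. The list of mature dendritic cell markers summed to 41.3 CPM in Ly6c2 cells and 614.5 CPM in Ace or Nr4a1 cells, with Ccl22 as its most abundant gene in both. It summed to 597.8 CPM in cluster 2, 603.9 CPM in 33 cDC1-like cells (at least 2 UMIs of Xcr1 and Clec9a) and 223.7 CPM in 28 cDC2-like cells (at least 2 UMIs of Cd209a and Clec10a). The richest cell held 59.1% of the Ccl22 UMIs of the Ace or Nr4a1 cells and 36.4% of those in cluster 2. B cells stood at 403.7 CPM, mostly Ccr7, and cluster 5 at 529.8 CPM, all of it Ccr7, so the sum of this list is not particular to dendritic cells.

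Lyz2 is shared by myeloid cells. It stood at 3886 CPM in Ly6c2 cells, at 2901 CPM in 108 neutrophil-like cells (at least 10 UMIs of S100a8 and S100a9 and fewer than 2 of the gate genes), at 996.9 CPM in 35 cells with 10 or more UMIs of Mpo, Elane and Ctsg, and at 789.3 CPM in cDC2-like cells. The shares of cells with Lyz2 in these 3 comparison sets were 75.9%, 80% and 75%. A share with Lyz2 thus set the Ly6c2 cells apart from lymphocytes and not from other myeloid cells, and they are called Ly6c2 cells here. For the Ace or Nr4a1 cells the data went against the label monocyte, and they are called by their rule.

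The gate genes themselves differed along the split. Fcgr1 stood at 195.5 CPM in Ly6c2 cells and 1.93 CPM (1 UMI) in Ace or Nr4a1 cells. Csf1r stood at 79.8 CPM (64.1 to 98.2) and 25.1 CPM (13.4 to 43.0). Ms4a6c was at 240.3 CPM (212.4 to 270.9) in the former and 245.4 CPM (204.6 to 292.0) in the latter, with overlapping intervals. These genes chose the cells, and their values describe the gate.

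The Ace or Nr4a1 set was in practice an Nr4a1 set. Nr4a1 was present in 47 of its 51 cells and Ace, the angiotensin-converting enzyme of nonclassical monocytes, in 5. Nr4a1 was also found in 37.6% of B cells, 62.9% of T cells and 40.7% of NK cells after restimulation. Over the whole gate, 10 cells had an Ace UMI, of which 5 also had Ly6c2. Of these 10 cells, 9 lay in cluster 1 and 1 in cluster 2, 9 had Lyz2 and 8 had Csf1r. Among genes of nonclassical monocytes, Cebpb was found in 9 of them, Cd36 in 5, Fabp4, Apoc2 and Treml4 in 3 each, Adgre4 in 2, Ear2 and Spn in 1 each and Cx3cr1 in none. The 5 cells with Ace and no Ly6c2 had the nonclassical list at 3631 CPM, of which Cd36 made up 1780 CPM (50 UMIs, 25 of them in 1 cell), against 427.0 CPM in the 46 cells with Nr4a1 and neither Ace nor Ly6c2, and 835.8 CPM in Ly6c2 cells.

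In the comparison of Ly6c2 cells with Ace or Nr4a1 cells, the former were richer in the transcripts of phagocytes and the latter in those of antigen presentation and lymphocytes. A gene was called higher or lower when its CPM differed at least 2-fold, among the 4715 genes with at least 50 UMIs in both sets together. By this rule 716 genes (15.2%) were higher and 653 genes (13.8%) were lower in Ly6c2 cells, and the median gene had a log2 ratio of 0.000924. The rule that split the cells used this same contrast, so the counts that follow describe the subsets and support nothing further. The lymphoid marker lists differed along this split as well. The 3 B cell genes, the 2 T cell genes and the 3 NK cell genes with enough UMIs were all lower in Ly6c2 cells. The part of lymphocytes in the counts was not tested.

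Genes of classical monocytes were higher in Ly6c2 cells in 12 of 13 cases, with a median log2 ratio of 2.68. The exception was Ms4a4c, at 85.2 against 92.8 CPM. Lyz2 stood at 3886 CPM in Ly6c2 cells and 251.2 CPM in Ace or Nr4a1 cells, a 15.5-fold difference (13 to 18.6). Chil3, a chitinase-like secreted protein, stood at 310.3 against 9.66 CPM (32.1-fold, 13.6 to 99.5). Without clusters 3 and 5 it stood at 301.9 against 21.5 CPM, the latter on 5 UMIs in 1 cell. Plac8, a small cysteine-rich protein of myeloid cells, stood at 871.6 against 69.6 CPM (12.5-fold, 8.99 to 18.0). The list also held F13a1, the A chain of coagulation factor XIII, Fn1 (fibronectin) and Vcan (versican), which were 24.1-fold (8.11 to 118, on 3 UMIs in Ace or Nr4a1 cells), 13-fold (5.44 to 40.6) and 6.09-fold (2.98 to 14.5) higher. Their differences were smaller without clusters 3 and 5, at 152.0 against 12.9 CPM (F13a1), 137.8 against 21.5 CPM (Fn1) and 99.3 against 34.4 CPM (Vcan). Of the 8 Vcan UMIs in those Ace or Nr4a1 cells, 7 came from 1 cell. Ccr2, the receptor by which monocytes leave the marrow, differed least of the 12, at 126.4 against 48.3 CPM (2.62-fold, 1.70 to 4.18). Ccr2 was found in 42 of the 97 Ly6c2 cells and so was not a marker of each of them.

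Genes of nonclassical monocytes were mostly too rare to be read in this split. Of the 15 genes on the list 6 had enough UMIs, and only Pou2f2 was called higher in Ace or Nr4a1 cells, at 183.6 against 48.4 CPM. Pou2f2 encodes the transcription factor OCT2, which B cells express strongly. Cebpb, the C/EBP transcription factor on which nonclassical monocytes depend, was 5.06-fold higher in Ly6c2 cells (3.67 to 7.15). Cd36, a scavenger receptor, stood at 159.6 against 162.3 CPM, a ratio of 0.983 (0.755 to 1.29). Without clusters 3 and 5 it stood at 168.2 CPM (143.6 to 195.8) in Ly6c2 cells and 296.7 CPM (230.8 to 375.5) in Ace or Nr4a1 cells. The latter value rested on 69 UMIs in 7 of 19 cells. Without the richest cell of each set, which held 42 of 166 and 25 of 69 UMIs, the levels were 128.9 and 194.6 CPM. Cx3cr1, the fractalkine receptor, had 22 UMIs in 8 Ly6c2 cells and 11 UMIs in 6 Ace or Nr4a1 cells. Treml4 had 2 UMIs and 1 UMI, and Cd300e had none in either. A count of 0 for Cd300e over the gated cells allows a level of up to 1.20 CPM by a limit of 3 UMIs and up to 1.47 CPM by the exact interval.

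**Figure D3:**
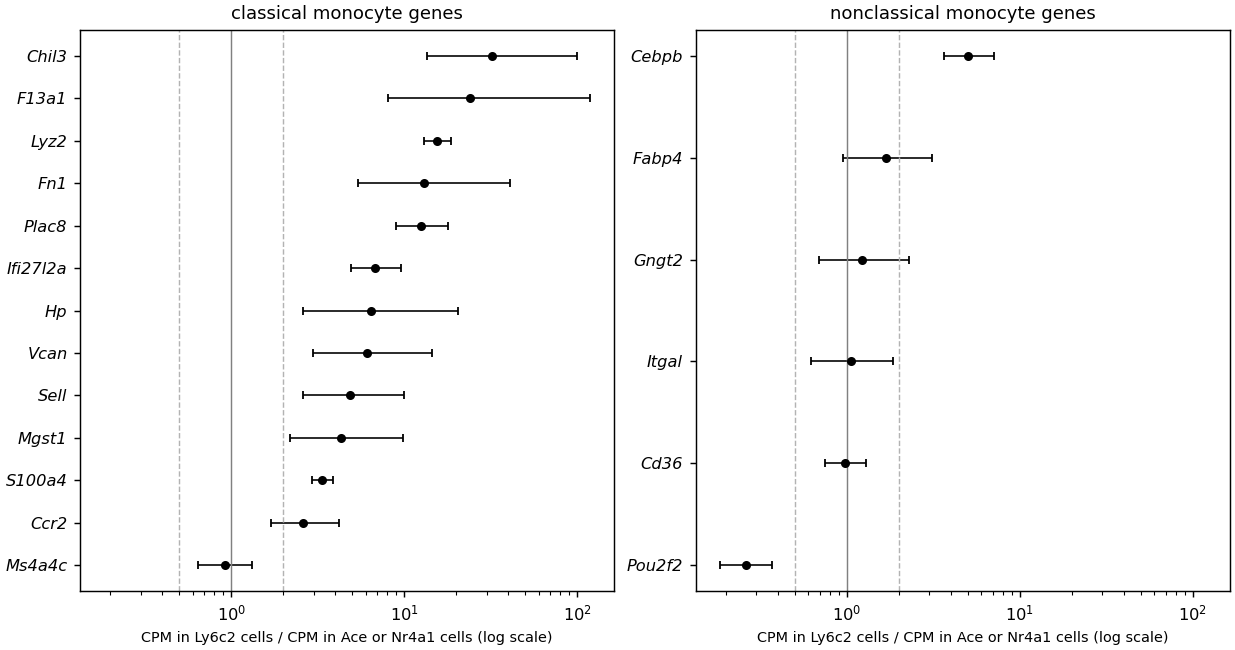
Ratio of CPM in Ly6c2 cells to CPM in Ace or Nr4a1 cells for 13 genes of classical and 6 genes of nonclassical monocytes, on a log axis. Points are ratios, bars are exact 95% counting intervals and dashed lines mark a 2-fold difference either way. Of the classical genes 12 lie above 2, and of the nonclassical genes Cebpb lies above 2 and Pou2f2 below 0.5.

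Regulators and receptors of the myeloid lineage were called in both directions. Of 12 myeloid transcription factors 6 were higher in Ly6c2 cells and 2 lower. Spi1, which encodes the myeloid master regulator PU.1, stood at 227.8 against 81.2 CPM (2.81-fold, 2.02 to 3.99). Klf4, Irf5 and Maf were also higher. The 2 lower factors were Irf4, at 71.7 against 286.0 CPM, and Zbtb46, a factor of conventional dendritic cells, at 31.4 against 114.0 CPM. Irf8 was found in 93.8% of Ly6c2 cells and was not called, at 833.1 against 1217 CPM. Csf2rb and Csf2ra, the subunits of the GM-CSF receptor, were 3.49-fold and 2.07-fold higher in Ly6c2 cells. Fcgr3, a low-affinity IgG receptor, and Fcer1g, the signalling chain shared by Fc receptors, were 9.35-fold and 2.76-fold higher. Ccr1, a receptor for inflammatory chemokines, stood at 608.9 against 56.0 CPM (10.9-fold, 7.50 to 16.3). Ccr7, which guides cells into the T cell zone, went the other way, at 9.86 against 226.1 CPM. Of 15 cytokine receptors 6 were higher, with Il13ra1 5.93-fold, Il4ra 2.27-fold and Il10ra 2.38-fold, and Tgfbr2 was lower.

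The phagocytic and lysosomal list had 10 of 11 genes higher in Ly6c2 cells and a median log2 ratio of 2.22. Lgals3, a galectin of macrophages, was found in 93 of 97 Ly6c2 cells with a median of 99 UMIs per cell, and in 24 of 51 Ace or Nr4a1 cells with a median of 0. Without clusters 3 and 5 it was found in all 86 Ly6c2 cells and in 17 of 19 Ace or Nr4a1 cells, at 9968 against 3018 CPM. Cd68, a lysosomal membrane protein of phagocytes, stood at 546.1 against 83.1 CPM (6.57-fold, 4.82 to 9.18). With clusters 3 and 5 left out it stood at 572.4 against 150.5 CPM, and 11 of 19 Ace or Nr4a1 cells had it. The co-receptor for lipopolysaccharide, Cd14, was 9.25-fold higher and the scavenger receptor Msr1 6.38-fold. Cathepsin genes were 3.44-fold (Ctsb) and 3.92-fold (Ctsl) higher. The one gene of this list that was not called was Cd63, at 1.92-fold. Outside the lists, Gpnmb, a lysosomal glycoprotein, stood at 1144 against 98.6 CPM, and Spp1, the secreted phosphoprotein osteopontin, at 4299 against 139.1 CPM (30.9-fold, 24.5 to 39.6). Without clusters 3 and 5 the differences were smaller, at 1263 against 215.0 CPM for Gpnmb and 4581 against 305.3 CPM for Spp1. In those Ace or Nr4a1 cells 26 of the 50 Gpnmb UMIs came from 1 cell. Spp1 was uneven between cells. It was found in 62 of the 97 Ly6c2 cells, with a median of 8 and a highest count of 540 UMIs.

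Innate sensing genes were also higher in Ly6c2 cells. Of 9 pattern recognition genes 6 were higher and 1, Tlr7, was lower (45.7 against 106.3 CPM). Tlr4, the receptor for lipopolysaccharide, was 5.88-fold higher, Nlrp3, the sensor of an inflammasome, 3.94-fold, and Clec4d, a C-type lectin of monocytes, 4.07-fold. Of 7 interferon-stimulated genes 6 were higher, among them Ifitm3 at 1666 against 328.5 CPM and Gbp2 at 1869 against 556.5 CPM. Effector enzymes were higher in 5 of 6 cases. Acod1, which makes itaconate, stood at 360.5 against 71.5 CPM, and Alox5ap, a partner of leukotriene synthesis, at 217.0 against 27.1 CPM. Hmox1 (haem oxygenase) and Sod2 (mitochondrial superoxide dismutase) were 2.70-fold and 2.18-fold higher. Complement component C3 and the anaphylatoxin receptor C3ar1 were 8.22-fold and 8.99-fold higher. Of 6 NADPH oxidase genes 2 were higher, and Cybb, the catalytic subunit, was not called (402.6 against 280.2 CPM). Nos2 and Retnla had no UMI in any gated cell. Cell cycle genes were higher in 3 of 4 cases, including Mki67 at 77.1 against 9.66 CPM and Top2a at 108.5 against 29.0 CPM.

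Antigen presentation ran the other way. Of 7 MHC class II genes 5 were lower in Ly6c2 cells and none higher, with a median log2 ratio of -1.40. H2-Aa stood at 645.7 CPM in Ly6c2 cells and 1965 CPM in Ace or Nr4a1 cells (3.04-fold, 2.76 to 3.35), with medians of 0 and 10 UMIs per cell. The invariant chain Cd74 stood at 1832 against 4321 CPM, and Ciita, the class II transactivator, at 37.7 against 106.3 CPM. B cells express these genes as well, with H2-Aa in 98.7% of B cells at 2164 CPM. Without clusters 3 and 5 H2-Aa stood at 543.0 against 2700 CPM and Cd74 at 1666 against 6475 CPM. Of the 19 Ace or Nr4a1 cells then left, 11 lay in cluster 2, the cluster rich in H2-Aa, against 12 of the 86 Ly6c2 cells. The part of each cluster in these differences was not tested. The coinhibitory ligand Cd274, which encodes PD-L1, was found in 96.9% of Ly6c2 cells and was not called (1620 against 1065 CPM), nor was the costimulator Cd86 (910.2 against 869.6 CPM). Among NF-kappaB feedback genes 8 of 15 were lower in Ly6c2 cells, with Nfkbid at 18.8 against 226.1 CPM. Of 18 early response genes 5 were lower, among them Nr4a3 (75.3 against 726.6 CPM) and Dusp2 (31.4 against 154.6 CPM), and Fos was higher (237.6 against 104.3 CPM). Nr4a3 belongs to the same gene family as Nr4a1, on which the cells were chosen. The genes with the strongest difference towards the Ace or Nr4a1 cells included Tnfsf8, the ligand of CD30 (3.59 against 245.4 CPM, and 2.74 against 105.5 CPM without the richest cell of each set), Ctla2a (2.69 CPM, from 3 UMIs, against 175.8 CPM), Ly75, the endocytic receptor DEC-205 (8.07 against 195.2 CPM), and Stat4, a signal transducer of NK and T cells (34.1 against 421.3 CPM). Ly75 stood at 4.05 against 369.8 CPM without clusters 3 and 5, and it was among the leading genes of cluster 2.

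Chemokine genes split into opposite groups, with 5 of 12 higher and 5 lower in Ly6c2 cells. Ccl2, the main ligand of CCR2, had the largest ratio, at 565.0 CPM in Ly6c2 cells and 7.73 CPM (4 UMIs) in Ace or Nr4a1 cells (73.1-fold, 28.4 to 269). It was found in 46 of the 97 Ly6c2 cells, and 208 of their 630 UMIs came from 1 cell, without which the level was 385.4 CPM. Without clusters 3 and 5 Ccl2 stood at 624.1 against 17.2 CPM, and at 422.0 against 8.95 CPM without the richest cell of each set as well. Ccl6, Ccl7 and Ccl9 were also higher, and so was Cxcl10, an interferon-induced ligand of CXCR3, at 824.1 against 398.1 CPM. The Cxcl10 difference was not shared by all hashtags, with 763.2 against 1366 CPM in hashtag 10 and 220.8 against 268.8 CPM in hashtag 11. Lower were Ccl3 (920.1 against 4189 CPM), Ccl4 (3775 against 11326 CPM), Ccl5 (568.5 against 2218 CPM), Cxcl2 and Ccl22. Ccl5 is given over all clusters only, and the part of lymphocytes in its difference was not tested. NK cells stood at 6098 CPM for Ccl3 and 20152 CPM for Ccl4. Within cluster 3, led by NK cell genes, Ccl4 had a median of 66 UMIs per cell, against 2 in cluster 1 and 8 in cluster 4. Without clusters 3 and 5 the differences were smaller, at 618.0 against 1690 CPM for Ccl3 and 2623 against 6071 CPM for Ccl4. Leaving out the richest cell of each set as well gave 524.4 against 873.0 CPM for Ccl3 and 2331 against 4172 CPM for Ccl4. By hashtag, Ccl4 was close in hashtag 9, at 3963 against 3990 CPM, and higher in Ly6c2 cells in hashtag 10, at 3687 against 1769 CPM. In Ace or Nr4a1 cells 117 of the 198 Ccl22 UMIs came from 1 cell. Ccl22 stood at 35.5 CPM in Ly6c2 cells and 769.7 CPM (661.0 to 891.0) in Ace or Nr4a1 cells once clusters 3 and 5 were left out, and at 20.6 against 302.7 CPM without the richest cell of each set as well. Cluster 2, where Ccl22 was a leading gene, held 11 of the 19 Ace or Nr4a1 cells then left.

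Among cytokines 4 of 7 were higher in Ly6c2 cells and none lower. Il1rn, the natural antagonist of the IL-1 receptor, was found in 74 of the 97 Ly6c2 cells and stood at 922.8 against 237.7 CPM (3.88-fold, 3.22 to 4.72). Il1b stood at 294.1 against 71.5 CPM, and 154 of its 328 UMIs in Ly6c2 cells came from 1 cell. Osm, an IL-6 family cytokine, was 7.12-fold higher and Il15 2.54-fold. Tnf was not called, at 50.2 against 79.2 CPM. Il12b was seen in a single gated cell, with 12 UMIs.

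Il10, the cytokine at the centre of the study, was scarce in the gated cells. It had 37 UMIs in 26 of the 254 cells, a share of 10.2% (6.80 to 14.6%) and a level of 14.8 CPM (10.4 to 20.4). No cell held more than 3. The level was 10.8 CPM (5.56 to 18.8) in Ly6c2 cells, 17.4 CPM in Ace or Nr4a1 cells and 18.4 CPM in the cells with none of the 3 genes, with overlapping intervals. Cluster 5, led by B cell genes, held 11 of the 37 UMIs. B cells stood at 79.3 CPM, T cells at 51.9 CPM and NK cells at 4.24 CPM. Without clusters 3 and 5 the level of the gated cells was 13.1 CPM (8.32 to 19.7). At 1000 UMIs per cell the level was that of 1 UMI, too few to read a difference.

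**Figure D4:**
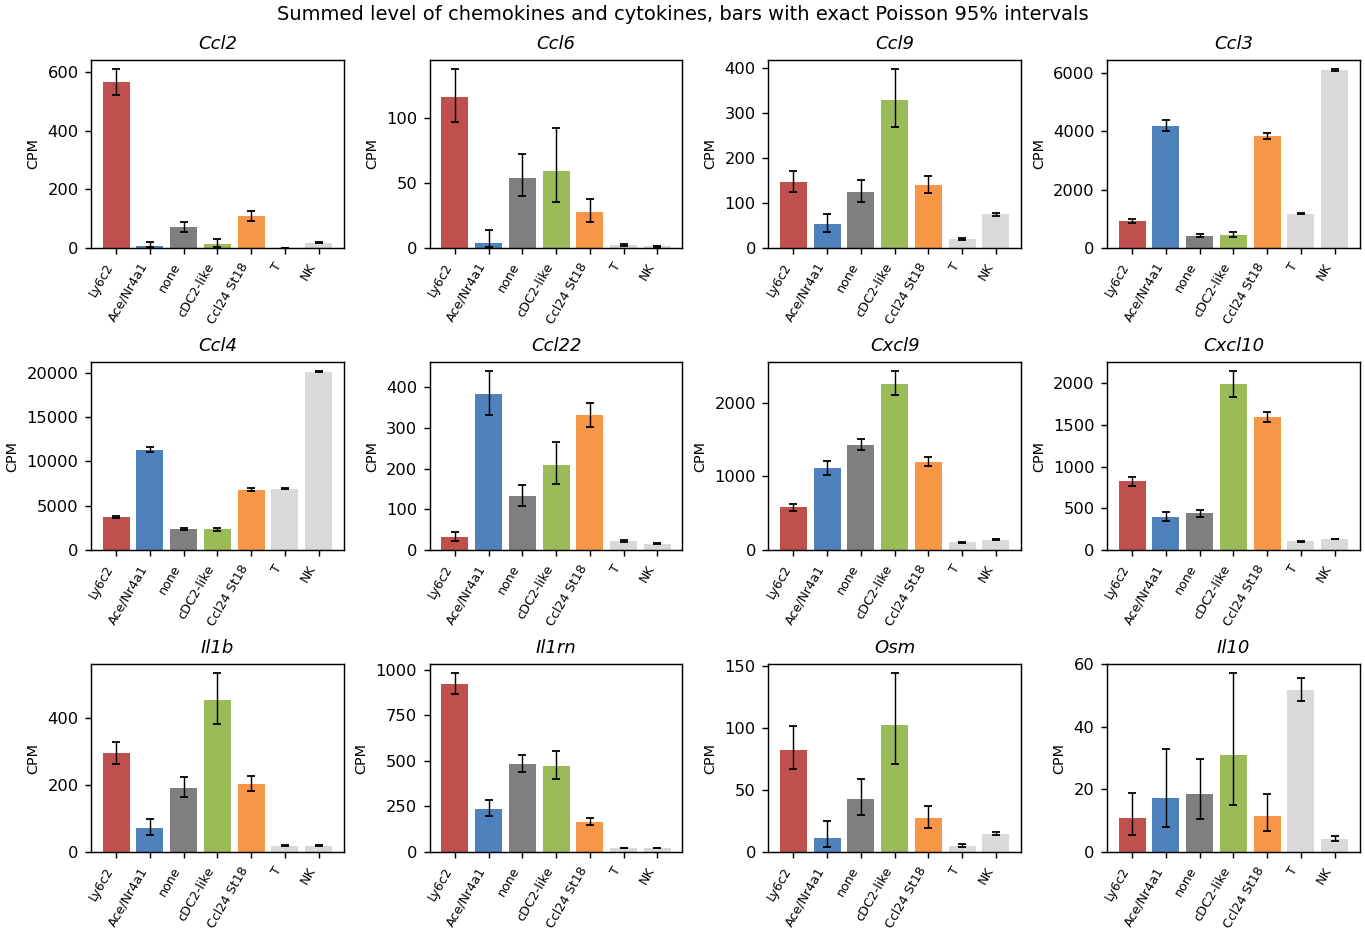
Level in CPM (linear axes from 0) of 8 chemokine genes (Ccl2, Ccl6, Ccl9, Ccl3, Ccl4, Ccl22, Cxcl9, Cxcl10) and 4 cytokine genes (Il1b, Il1rn, Osm, Il10) in Ly6c2 cells, Ace or Nr4a1 cells, cells with none of the 3 genes, cDC2-like cells, Ccl24 St18 cells, T cells and NK cells, with exact Poisson 95% intervals. Ccl2 stands at 565.0 CPM in Ly6c2 cells, and Ccl4 at 20152 CPM in NK cells and 11326 CPM in Ace or Nr4a1 cells.

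Leaving out the clusters led by lymphocyte genes left 19 Ace or Nr4a1 cells, in which Lyz2 stood at 541.8 CPM and was found in 57.9%, Fcgr1 at 4.30 CPM and Cd74 at 6475 CPM. Of these 19 cells 11 lay in cluster 2, the cluster rich in H2-Aa, against 12 of the Ly6c2 cells. The 86 remaining Ly6c2 cells had Lyz2 at 4233 CPM in 93.0% of cells. Over the same comparison 555 genes were then higher and 322 lower in Ly6c2 cells, against 716 and 653 with all clusters, so the near-even balance did not hold. It was 535 and 270 without the cells on Ms4a6c alone, and 1118 and 429 when the Ly6c2 cells were set against the 5 cells with Ace and no Ly6c2. Those 5 cells held 28089 UMIs in all, against 1115136 in Ly6c2 cells, and a gene with no UMI in them counted as higher in Ly6c2 cells. Fewer Ace or Nr4a1 cells were left in each of these cases, so the balances also depended on the unequal UMI totals.

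The 106 cells with no Ly6c2, Ace or Nr4a1 UMI stood between these subsets in Lyz2, at 688.0 CPM in 42.5% of cells. Against them, 408 of 5114 genes (7.98%) were higher in Ly6c2 cells and 361 (7.06%) lower. Classical genes were higher in 10 of 13 cases and phagocytic and lysosomal genes in 8 of 12, while Mrc1 of the latter list was lower. Markers of other cells were also lower in Ly6c2 cells: all 3 B cell genes, both mature dendritic cell genes (Ccl22 and Ccr7) and Gzma, 1 of 2 NK cell genes. The part of such cells in this comparison was not tested. MHC class II genes were lower in 5 of 7 cases, with H2-Aa at 645.7 CPM in Ly6c2 cells and 3064 CPM in the cells with none. Without clusters 3 and 5, the remaining 63 cells had Lyz2 at 1090 CPM in 63.5% of cells and H2-Aa at 3800 CPM. Of the 106 cells, 35 lay in cluster 2, the cluster rich in H2-Aa.

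The gated cells were next set beside 28 cDC2-like cells, taken with at least 2 UMIs of the lectin genes Cd209a and Clec10a and the other limits unchanged. Of 6103 genes 921 (15.1%) were higher and 137 (2.24%) lower in the gated cells, with a median log2 ratio of 0.201. With the Ly6c2 cells alone, 508 of 4207 genes (12.1%) were higher and 156 (3.71%) lower. The gated cells held 2503329 UMIs and the Ly6c2 cells 1115136, against 321814 in the cDC2-like cells. A gene of the larger set thus reached the UMI minimum at a lower CPM. The balance of higher and lower genes was therefore partly set by the size of the sets. The genes higher in all gated cells included Ebf1, at 280.4 against 3.11 CPM (1 UMI), beside Arhgap24, which also led cluster 5. The Ly6c2 cells, with 11 of 97 cells in clusters 3 and 5, are used for the rest of this comparison. Markers of other cells differed there too. Ebf1 stood at 82.5 CPM in Ly6c2 cells, with 59 of its 92 UMIs in 1 cell. Igkc, the other B cell gene with enough UMIs, was lower in Ly6c2 cells than in cDC2-like cells. The 3 neutrophil markers with enough UMIs (S100a8, S100a9 and Csf3r) were all higher in Ly6c2 cells than in cDC2-like cells, and the list summed to 712.0 against 105.7 CPM. A single richest cell held 377 of the 400 S100a9 UMIs, and without it S100a9 stood at 21.0 CPM. For S100a8 the richest cell held 250 UMIs, or 91.6% of those in Ly6c2 cells. Without it S100a8 lay below its 34.2 CPM in cDC2-like cells, so that call rested on 1 cell. The part of other cell types in the differences below was not tested.

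Classical monocyte genes were higher in Ly6c2 cells than in cDC2-like cells in 8 of 13 cases and lower in 1. Lyz2 stood at 3886 against 789.3 CPM (4.92-fold, 4.34 to 5.61). Chil3 stood at 310.3 CPM, with 2 UMIs in all in cDC2-like cells (49.9-fold, 13.7 to 414), and Ccl2 at 565.0 against 12.4 CPM (4 UMIs, 45.5-fold, 17.7 to 167). Gpnmb was 23.0-fold higher (14.1 to 40.4). Cebpb was 8.06-fold higher (4.91 to 14.2). Phagocytic and lysosomal genes were higher in 9 of 12 cases, and the exception in the opposite direction was the mannose receptor Mrc1.

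All 7 MHC class II genes with enough UMIs were lower in Ly6c2 cells than in cDC2-like cells, with a median log2 ratio of -2.15 beside 0.163 over all genes. H2-Aa stood at 645.7 against 3918 CPM (6.07-fold, 5.53 to 6.66), H2-Ab1 at 634.0 against 3198 CPM and Cd74 at 1832 against 8135 CPM. Zbtb46 and Batf3, factors of conventional dendritic cells, were 2.97-fold and 3.74-fold higher in cDC2-like cells, on 30 and 27 UMIs. Htr7, a serotonin receptor, stood at 77.1 against 522.0 CPM. Cxcl9 and Cxcl10, ligands of CXCR3, were 3.92-fold and 2.41-fold higher in cDC2-like cells. Only 28 cells carry these values, and the largest differences rest on few UMIs in them.

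The last comparison was with 109 cells that had at least 3 UMIs of Ccl24, St18 and Slc4a4, here called Ccl24 St18 cells by their genes. Of 7162 genes 401 (5.6%) were higher and 439 (6.13%) lower in the gated cells. With Ly6c2 cells alone, 557 of 6069 genes (9.18%) were higher and 786 (13%) lower. Lyz2 was found in 35.8% of the Ccl24 St18 cells and stood at 678.9 CPM there, 5.72-fold below Ly6c2 cells (5.34 to 6.14). Classical genes were higher in Ly6c2 cells in 11 of 13 cases and phagocytic and lysosomal genes in 10 of 11, with Cd14 7.89-fold and Cd68 4.46-fold. Markers of other cells moved too, in both directions. Both NK cell genes with enough UMIs were higher in Ly6c2 cells, Gzma at 259.2 against 33.8 CPM and Prf1 at 64.6 against 17.6 CPM. So were 3 of 5 neutrophil markers (S100a8, S100a9 and Csf3r), while Ngp and Ltf were lower. Without the Ly6c2 cell richest in S100a9, that gene lay below its 73.0 CPM in Ccl24 St18 cells. A single cell held 91.6% of the S100a8 UMIs of the Ly6c2 cells. Lower in Ly6c2 cells were Trbc2 and Trac (2 of 3 T cell genes), Ighm (1 of 3 B cell genes) and the basophil gene Mcpt8. The part of other cell types in this comparison was not tested. Thbs1 (thrombospondin, a matrix protein) stood at 103.1 against 2.03 CPM (3 UMIs, 50.8-fold, 17.0 to 250). Slpi, a secreted protease inhibitor, stood at 946.1 against 109.5 CPM (575.6 against 13.6 CPM without the richest cell of each set), Pdpn (podoplanin) at 228.7 against 21.6 CPM, and Clec5a, a lectin receptor of monocytes, at 69.9 against 4.73 CPM. Il1rn was 5.52-fold higher (4.80 to 6.37).

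In the other direction, Adamts6, a secreted metalloprotease, stood at 25.1 CPM in Ly6c2 cells and 1214 CPM in Ccl24 St18 cells. Tnfsf8 stood at 3.59 against 511.9 CPM. Dpysl3 and Tnfsf4 had no UMI in Ly6c2 cells and 162.3 and 132.5 CPM in Ccl24 St18 cells. Ccl3 was 4.16-fold and Il1a 4.76-fold higher in Ccl24 St18 cells. MHC class II genes were called in both directions, with 1 of 7 higher and 3 lower in Ly6c2 cells.

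A single hashtag was assigned to 201 gated cells, while 43 carried 2 or more and 10 carried none. The gated cells made up 2.52% of hashtag 9 cells (1.89 to 3.29%), 1.10% of hashtag 10 cells (0.779 to 1.51%), 2.69% of hashtag 11 cells (2.11 to 3.37%) and 1.5% of hashtag 12 cells (1.06 to 2.05%). These came to 52, 38, 73 and 38 cells. The intervals of hashtags 9 and 11 overlapped each other and lay above that of hashtag 10. That of hashtag 11 also lay above that of hashtag 12, which overlapped those of hashtags 9 and 10. Since the hashtags are not tied to conditions and each may hold 1 sample, the differences cannot be attributed to therapy and were not tested.

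The share of Ly6c2 cells among the gated cells was 34.6%, 42.1%, 49.3% and 26.3% for hashtags 9 to 12, with overlapping intervals. The share with Lyz2 was 48.1%, 68.4%, 63.0% and 52.6%. Cluster 1 held 37 of the 73 gated cells of hashtag 11 (50.7%), against 8 of 52, 8 of 38 and 6 of 38 for the other hashtags. Within Ly6c2 cells, Ccl2 stood at 1349 CPM for hashtag 9 and 1051 CPM for hashtag 10, and at 162.9 CPM and 252.3 CPM for hashtags 11 and 12. The hashtag 9 value held the cell with 208 Ccl2 UMIs. Without the richest cell of each hashtag the levels were 527.5, 709.2, 105.8 and 159.4 CPM for hashtags 9 to 12, so the order of hashtags 9 and 10 rested on that cell. Spp1 ranged less, from 3214 to 5937 CPM, and Lyz2 from 2893 to 5612 CPM. Il10 in the gated cells was 15.9, 31.1, 7.22 and 3.44 CPM for hashtags 9 to 12, on 37 UMIs in all including the cells without a single hashtag.

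The split was also read within each hashtag, as a description on 10 to 36 Ly6c2 cells and 5 to 17 Ace or Nr4a1 cells. Lyz2, Cd68, Spp1, Lgals3, Ccl2 and Il1rn were higher in Ly6c2 cells, and H2-Aa, Nr4a3, Ccr7 and Ebf1 lower, in all 4 hashtags. For Lyz2 the levels were 2893 against 26.6 CPM, 3887 against 1279 CPM, 4463 against 144.3 CPM and 5612 against 390.5 CPM for hashtags 9 to 12. Hashtag 10 went against the others for Cd74 (2742 against 1980 CPM) and for the granzyme gene Gzma (616.4 against 17.5 CPM).

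**Figure D5:**
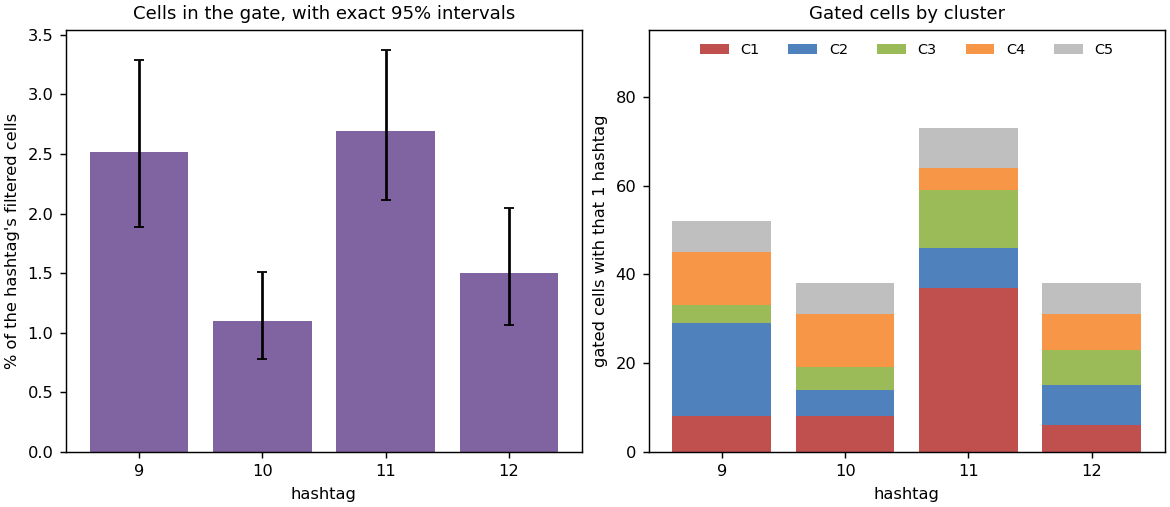
Left, gated cells as a percentage of all filtered cells of each hashtag, with exact 95% intervals. Right, gated cells of each hashtag by cluster. Hashtag 11 had the highest share (2.69%), and 37 of its 73 gated cells were in cluster 1.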

How the data were processed

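Spleen cells of 3 conditions were measured as 1 pool, in a gene expression library and a hashtag library. The authors deposited whole-number UMI counts per gene (32285 genes) and per hashtag for 16829 barcodes, made with Cell Ranger 7.2.0 by the submitters' processing notes (the matrix header reads 7.0.0) on GRCm38 (mm10), without normalization. Of the barcodes 16826 had a hashtag UMI and 3 had none. Barcodes had a median of 6334 UMIs (502 to 98727), and 16325 passed the cell filter.

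Counts of the cells of a set were summed and divided by their total to give CPM. Exact intervals were computed with SciPy 1.17.1 (Python 3.11.15, NumPy 2.4.6, pandas 2.3.3). With 1 pool there is no test: genes with at least 50 UMIs in both sets together were called at a 2-fold difference. A gene with no UMI in 1 of the sets was called as well. Where the sets differed in total UMIs, a gene of the larger set reached the minimum at a lower CPM. Clusters came from scanpy 1.11.5 (2000 variable genes, 20 principal components, 15 neighbours, Leiden resolution 0.5), doublets from Scrublet and from HTODemux (Seurat 5.3.0, R 4.3.3, positive quantile 0.85), and doublets were kept. For thinned values each cell was drawn down to 1000 UMIs, which no gated cell fell below (1 Ccl24 St18 cell and 30 NK cells did and were left out). The calculations were tested on simulated data.

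The gate, the gene lists and the comparisons were chosen with earlier results of these data known. Genes were named from these lists, from the gate, and by a rule: the 10 genes on each side of a comparison (the highest 10 of a cluster) ranked by the 95% limit of the ratio nearest to 1, with at least 50 UMIs and a UMI in 10% of the cells of the higher set, without gate genes, mt-, Rpl, Rps, Gm and Rik genes. Of 349 list entries 346 were among the features; the others were not analysed here. Alternatives varied the cell filter, doublets, hashtags, gate, depth, weighting, split, UMI minimum and cluster resolution. One further gene of the lists is not reported here.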

Additional observations from a re-analysis of the deposited data

Results flagged for a closer look

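Cluster 1 held 50.7% of the gated cells of hashtag 11, far from the other 3 hashtags, which stood at 15.4%, 21.1% and 15.8%. The gap to the nearest hashtag was 0.839 of the whole range, above Dixon's 95% critical value for 4 values. Of 10 measures compared over the hashtags 1 was flagged, and chance flags about 1 in 20. No other comparison of these shares was made, and hashtags are not tied to conditions.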

How the results depend on the processing

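Of the values recomputed over 8 results, 73 stayed within the tolerance (a factor of 1.5 for counts of genes and clusters, the exact 95% interval of the reported value otherwise) and 43 moved. As counts, shares and levels they have no sign that could reverse, but the balance of higher and lower genes did turn. Against Ccl24 St18 cells, 401 higher and 439 lower became 366 and 335 without hashtag 9, 292 and 237 at 100 UMIs, and 106 and 60 at 1000 UMIs per cell. For the split, 716 and 653 became 1119 and 1231 at 20 UMIs. The cell filter, Scrublet and hashtag settings moved little beyond the cell number (201 and 204 cells with 1 hashtag at quantiles 0.85 and 0.99, and 181 to 216 without each hashtag in turn). Without each hashtag the share with Lyz2 ranged from 53.0 to 57.9%, that with Ly6c2 from 33.7 to 40.3%, Il10 from 11.8 to 17.7 CPM, and the genes 2-fold apart from 979 to 1353 (Ly6c2 against Ace or Nr4a1 cells), 818 to 1270 (against cDC2-like cells) and 701 to 803 (against Ccl24 St18 cells). The reported counts in this order were 1369, 1058 and 840. A gate sum of at least 3 left 153 cells, 74.5% with Lyz2, 54.2% with Ly6c2 and 671 genes against cDC2-like cells. A sum of at least 4 left 105 cells, 81.9%, 61.9%, and 774, 573 and 1173 genes. At 1000 UMIs per cell the shares were 42.5% (Lyz2) and 17.3% (Ly6c2), Il10 was 3.94 CPM (1 UMI), and 171, 198 and 166 genes were 2-fold apart, since fewer genes reached the UMI minimum. With at least 2 Ly6c2 UMIs, 31.9% of cells were Ly6c2 cells. A minimum of 20 UMIs gave 2350, 1904 and 1508 genes, and of 100 UMIs 844, 554 and 529, by construction. Resolution 1 gave 8 clusters in place of 5.

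Further alternatives were chosen after seeing the data. Without the cells on Ms4a6c alone, 129 cells remained, 87.6% with Lyz2 and 58.9% with Ly6c2, with 805, 662 and 1377 genes. Without the clusters led by lymphocyte genes, 168 cells remained, 78.0% with Lyz2 and 51.2% with Ly6c2, with 877, 652 and 1239 genes. With Ly6c2 cells in place of all gated cells, 664 genes differed from cDC2-like cells and 1343 from Ccl24 St18 cells. Against the cells with none of the 3 genes, Ly6c2 cells differed in 769 genes. The cause of these shifts was not tested. With 1 pool, counting intervals say nothing of the spread between mice. No test paired by hashtag was made, since the rule that split the cells used that contrast, and its values by hashtag are a description.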
